A study of Mus musculus with 20 samples.

Results

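The genes described here were the long non-coding RNA genes expressed in liver tissue of a mouse model of colorectal liver metastasis (CRLM). A gene was included when its deposited biotype was lincRNA, lncRNA or antisense, when its mean over the 14 tissue libraries was at least 2 CPM (counts scaled to a common library total), and when it did not lie on chromosome X or Y. This rule kept 178 of the 8385 genes of these biotypes and of the 54532 genes in the tables, and 181 would have passed with X and Y included. Of the 178 members, 115 were annotated as lincRNA and 63 as antisense. The mean tissue level chose the members, so members were chosen by that level and it is given only as a description: its median was 3.88 CPM, 34 members reached 10 CPM and 11 reached 50 CPM. Gm38416 lay just inside the threshold at 2.007 CPM and 5730414N17Rik just outside at 1.987 CPM. For 39 members the mean was reached only with the group in which they were highest, and 139 passed without that group, so a count over members is a description and carries no support of its own.

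Wild-type (WT) C57BL/6 mice received Mc38 cells, a mouse colon carcinoma line, and RNA of tissue pieces centred on metastases was sequenced. The con group was normal liver of mice given normal saline at day 0 (2 livers), and L-con was liver free of tumor, away from the metastases, at day 12 (1 liver). Low-content tumor pieces (Lt) and the medium-content pieces Mt3 were taken at day 9, the medium-content pieces Mt2 and Mt1 at day 11, and the high-content pieces (Ht) at day 12, with 2 livers in each group. F4/80+ and CD11b+ cells were enriched with magnetic beads from Mt2 tumors at day 11, and 3 libraries of each were sequenced. All tumor-bearing mice carried the same cell line, tumor content rose together with the day of sampling, and a tissue piece held liver, tumor, vessel and immune cells together. The Ht group has 3 deposited libraries, of which the study describes 2 as made from the identical sample; their counts were summed, which left 2 Ht samples. The study refers to biological replicates, with 2 livers for each tissue group except L-con. For the sorted cells no number of livers is given. P-values measure the spread between these samples.

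Long non-coding RNAs are transcripts that are spliced and polyadenylated much like mRNAs but carry no long open reading frame. Some act in the nucleus on transcription and on nuclear bodies, some act on a neighbouring gene, and some are precursors from whose introns or exons small nucleolar RNAs or microRNAs are cut. As a class they are more restricted to particular tissues than mRNAs, and the liver, myeloid cells and proliferating cells each have known members. Antisense genes are transcribed from the strand opposite to a coding gene. The kit named in the labels (NEBNext Ultra RNA) is taken here as one that does not keep the strand, and the strand setting of the counting is not given in the sources used here, so reads of an antisense gene and of its coding partner may not be told apart where their exons overlap. Among the members, 73 overlapped a coding gene, 66 of them on the other strand, 91 shared some exonic bases with another gene and 6 shared over 50% of them. A further 45 lay within 5 kb of a coding gene without overlap, and 60 lay farther away.

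Promoter sequences are shown for members on which the results below turn. RefSeq promoters (250 bases before to 50 bases after the start, GRCm38.p6) were matched to 101 of the 178 members by symbol, chromosome and strand, and in 84 of these the RefSeq start lay within 500 bases of the deposited one. The first was called lower in high-content tumor, the following 3 were called higher there, and the last was called lower in high-content tumor than in con and higher in sorted cells than in Mt2. Each is written 5′ to 3′ on the gene's strand, with capitals on a match to a searched motif. They are 9030616G12Rik at chr10:128970947-128971246 (+), Snhg18 at chr15:32244613-32244912 (−), Gm36161 at chr13:120010092-120010391 (+), AU020206 at chr7:75782071-75782370 (−) and AW112010 at chr19:11050517-11050816 (−).
9030616G12Rik promoter: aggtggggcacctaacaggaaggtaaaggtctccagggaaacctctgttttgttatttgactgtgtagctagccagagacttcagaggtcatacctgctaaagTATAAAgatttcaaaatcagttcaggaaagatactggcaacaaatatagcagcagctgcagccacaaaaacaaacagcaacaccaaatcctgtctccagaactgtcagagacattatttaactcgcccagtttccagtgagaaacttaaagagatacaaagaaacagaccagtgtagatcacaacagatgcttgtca
Snhg18 promoter: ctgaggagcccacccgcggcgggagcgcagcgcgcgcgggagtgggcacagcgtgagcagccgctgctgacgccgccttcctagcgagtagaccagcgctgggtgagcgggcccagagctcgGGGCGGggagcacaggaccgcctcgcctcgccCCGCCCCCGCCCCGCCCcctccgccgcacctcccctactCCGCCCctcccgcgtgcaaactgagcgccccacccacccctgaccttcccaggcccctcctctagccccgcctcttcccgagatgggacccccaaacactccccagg
Gm36161 promoter: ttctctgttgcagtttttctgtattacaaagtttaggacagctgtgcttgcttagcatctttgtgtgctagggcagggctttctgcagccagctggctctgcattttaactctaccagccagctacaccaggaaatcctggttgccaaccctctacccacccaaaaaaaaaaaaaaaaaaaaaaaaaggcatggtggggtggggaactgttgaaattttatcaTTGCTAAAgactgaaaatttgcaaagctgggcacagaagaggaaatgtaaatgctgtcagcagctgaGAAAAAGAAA
AU020206 promoter: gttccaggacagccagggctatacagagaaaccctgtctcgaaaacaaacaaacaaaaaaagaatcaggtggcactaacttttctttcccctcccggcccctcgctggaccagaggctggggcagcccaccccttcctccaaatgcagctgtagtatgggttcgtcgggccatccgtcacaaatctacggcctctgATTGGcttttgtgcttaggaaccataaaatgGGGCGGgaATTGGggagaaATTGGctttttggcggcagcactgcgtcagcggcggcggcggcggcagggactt
AW112010 promoter: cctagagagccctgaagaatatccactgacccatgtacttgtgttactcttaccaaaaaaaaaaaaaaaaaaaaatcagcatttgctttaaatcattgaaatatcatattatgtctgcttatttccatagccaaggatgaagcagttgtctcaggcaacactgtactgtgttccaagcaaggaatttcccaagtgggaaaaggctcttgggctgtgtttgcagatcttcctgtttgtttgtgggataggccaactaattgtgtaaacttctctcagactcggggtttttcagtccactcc

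The capitals in 9030616G12Rik are the TATA box letters TATAAA, which lay between 147 and 142 bases before the start and were found in 13.6% of the 32851 RefSeq promoters. Snhg18 held 5 GC boxes (GGGCGG on either strand, 35.7% of all promoters) and 31 CpG pairs. Gm36161 held 1 C/EBP match (TTGCNNAA, 10.8% of all) and 1 interferon response match (on the other strand, 3.44% of all), and no CpG. AU020206 held 3 CCAAT boxes (CCAAT on the other strand, 37.4% of all) and 1 GC box, and the AW112010 promoter held no match to any of the 15 motifs searched. Over the 84 matched promoters, at least 15 CpG pairs were present in 10 of 40 members that were lower in Ht, in 6 of 21 that were higher, and in 13 of 23 that were not called, against 34.6% of all RefSeq promoters. The C/EBP letters were present in 10 of the 40 lower members, 3 of the 21 higher and 3 of the 23 not called. PU.1 letters (GAGGAAGT, 3.2% of all promoters) were present in 0 of 40, 3 of 21 and 1 of 23. The letters of the liver factor HNF4 (CAAAGTCCA, 0.475% of all) were in none of the 84. These matches are a description of letters on both strands and not of bound sites.

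Each microRNA shown next is encoded within a member on the same strand, and is shown because its host gene changed between con and Ht. Mature sequences are from RefSeq (GRCm38.p6), with the seed, bases 2 to 8, in capitals. In all, 6 members contained 23 mature microRNAs. Dnm3os on chromosome 1 contains miR-199a and miR-214, AL805899.1 on chromosome 4 contains miR-31, and Mir17hg on chromosome 14 contains the miR-17 to miR-92a cluster. Within that cluster miR-17-5p and miR-20a-5p share the seed AAAGUGC, and miR-19a-3p and miR-19b-3p share GUGCAAA.
miR-199a-5p: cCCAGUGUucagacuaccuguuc
miR-199a-3p: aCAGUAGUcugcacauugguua
miR-214-5p: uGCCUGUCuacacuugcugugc
miR-214-3p: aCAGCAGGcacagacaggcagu
miR-31-5p: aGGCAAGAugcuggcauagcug
miR-17-5p: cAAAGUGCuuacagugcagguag
miR-20a-5p: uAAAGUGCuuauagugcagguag
miR-19a-3p: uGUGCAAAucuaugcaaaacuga
miR-19b-3p: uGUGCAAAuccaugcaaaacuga

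Library totals ran from 16032085 to 18246623 counts in tissue and from 17785496 to 20548370 in sorted cells, so that 3 counts, taken as the floor, equalled 0.146 to 0.187 CPM. From here on, levels are CPM scaled by edgeR's trimmed mean of M-values (TMM). Summed over 12 hepatocyte markers, the level was 181679 to 206404 CPM in con, 98498 to 179334 in Lt, 109237 to 139461 in Mt3, 3896 to 5609 in Ht and 229 to 466 in sorted cells. Within Mt2 it was 105206 in the first library and 27894 in the second, and within Mt1 it was 99847 and 26678, so the second library of each stood apart. Over 13 macrophage markers the sum was 657 to 942 CPM in con, 2416 to 2471 in Ht, 16188 to 18675 in F4/80+ cells and 14587 to 21345 in CD11b+ cells. Neutrophil markers reached 162 to 648 CPM in F4/80+ cells and 1051 to 4730 in CD11b+ cells, with the highest sum in the third CD11b+ library. Monocyte markers lay at 2465 to 2530 CPM in con and 1502 to 1568 in Ht, endothelial markers at 568.1 to 671.6 and 285.3 to 304.9, and T, B and NK cell markers at 5.173 to 25.72 and 35.63 to 43.85. The monocyte list summed to 2049 to 2989 CPM in F4/80+ cells and 3269 to 5089 in CD11b+ cells. Con liver thus lay within the range of F4/80+ cells, and this sum is not read as monocyte content. Fibroblast and stellate cell markers lay at 358 to 516 CPM in con and 6489 to 7321 in Ht, cell cycle markers at 15.5 to 24.5 and 1318 to 1348, and epithelial tumor markers at 543.9 to 587.7 and 119.6 to 227.3, so the list of epithelial markers was not higher in Ht than in con. Tissue libraries held 0 to 3 counts of Xist and 348 to 1421 of the Y-linked Ddx3y, whereas sorted-cell libraries held 5547 to 21805 and 0, so the tissue and sorted-cell libraries differed in sex-linked genes. The labels give the tissue mice as male, and the study's methods describe female mice.

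Levels of different genes were compared per kilobase of exon. On this scale AW112010, an RNA induced in immune cells by inflammatory stimuli, was highest with a mean of 103.8 CPM per kb over the tissue libraries, ranging from 33.24 to 164.5. Malat1, a nuclear RNA of speckles, reached 20.5 CPM per kb, and the liver-linked 0610005C13Rik 23.29 CPM per kb. On the TMM scale the most even member was 2900097C17Rik (Norad, which binds Pumilio proteins, chr2:156388065-156392979, − strand), whose highest tissue library was 1.27 times its lowest. Con livers had 154.2 and 157.7 CPM, the L-con liver 151.6, Lt pieces 145 and 158.8, Mt3 pieces 166.8 and 131.6, Mt2 pieces 160 and 166.3, Mt1 pieces 142.2 and 144.7, and Ht pieces 165.9 and 165.4. TMM factors ran from 0.6638 in the first con library to 1.526 in the first Ht sample. This RNA therefore varied more, and was higher in Ht than in con, on CPM of the library total. Of the 33 members at 10 CPM or more after TMM scaling, 4 varied by less than 2 times over the tissue libraries and 16 by more than 10 times. The highest group mean was in con for 62 members and in Ht for 60 on the TMM scale, against 37 and 91 on the CPM of the library total by which members were chosen.

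**Figure D1:**
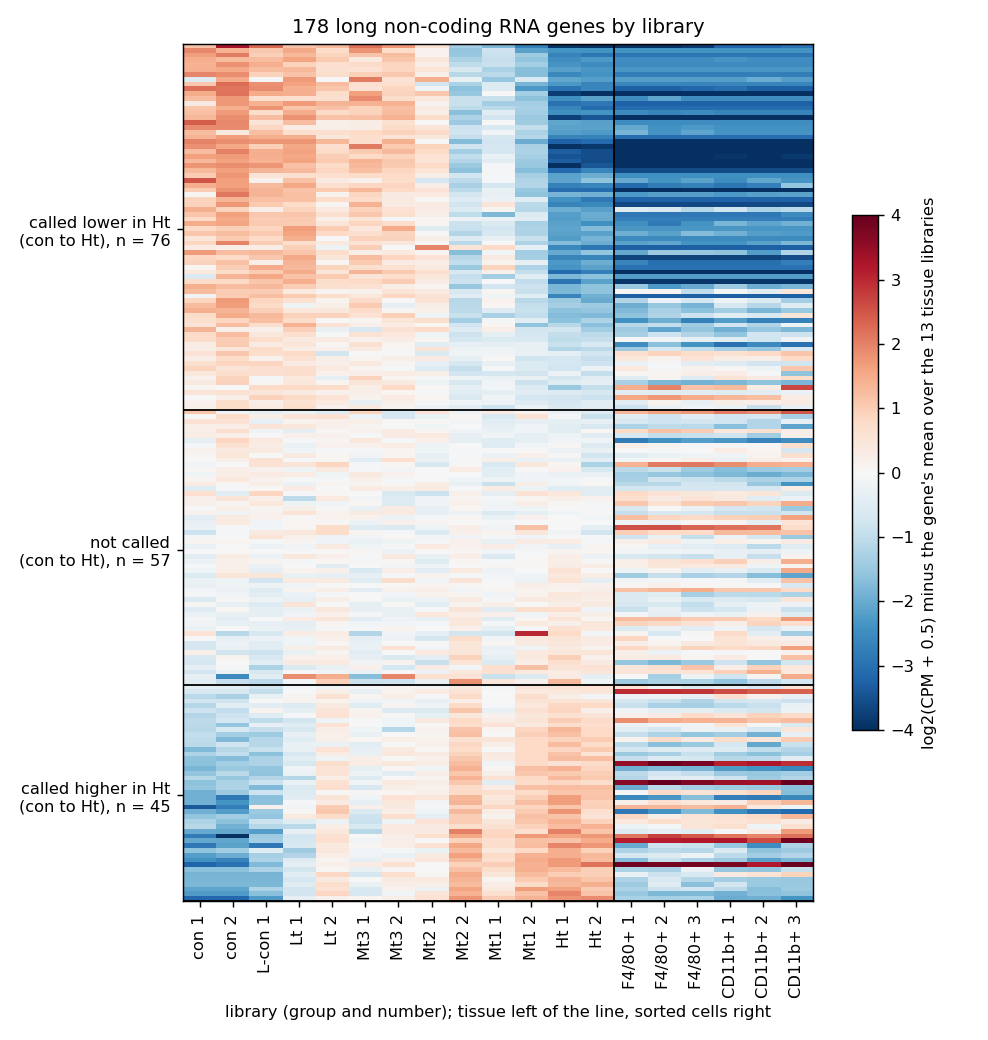
Heat map of the 178 members (rows, ordered by their call between con and Ht) in 13 tissue libraries and 6 sorted-cell libraries (columns). Colour gives log2(CPM + 0.5) minus the gene's mean over the tissue libraries. The 76 members lower in Ht fade towards Ht, with 40 of them at most at 3 counts in every sorted library, whereas the 45 higher members are paler or blue in con and L-con and red in the Ht columns.

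Normal liver was compared with high-content tumor to ask which long non-coding RNAs distinguish the 2 ends of the tumor series. Of the 178 members, 76 fell and 45 rose (edgeR quasi-likelihood test, Benjamini-Hochberg adjusted p up to 0.05, change of 1 or more on the log2 scale). This was 42.7% lower against 24.1% of all genes tested, and 25.3% higher against 25.8%. The median log2 change of the members was −0.40, against 0.09 for all genes. Among the 139 members that passed the level without their highest group, 64 fell and 28 rose. Of the members named in this comparison, Hotairm1, Ptgs2os2 and Airn reached the level only through Ht and Gm12909 only through con, so their changes between these groups are descriptions. In bulk tissue, fewer cells of a type and less RNA per cell cannot be told apart. With scaling by total counts the median of all genes moved to 1.27 and that of the members to 0.79, and 76 members were called higher and 60 lower (42.7% and 33.7%, against 51.3% and 13.1% of all genes tested); the members lay 0.49 below all genes on both scalings.

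The lower members included RNAs known from hepatocytes. Among 9 tested genes of a list of liver-linked long non-coding RNAs, 7 fell and none rose, with a median log2 change of −5.71. 0610005C13Rik, the most abundant of them (chr7:45567794-45575327, − strand, antisense to Bcat2), had 166.1 and 174.3 CPM in con livers and 165.5 in the L-con liver. Lt pieces held 108 and 82.45 CPM, Mt3 pieces 118.1 and 99.42, Mt2 pieces 84.14 and 16.87, Mt1 pieces 46.87 and 16.55, and Ht pieces 2.563 and 4.063. Con and Ht did not overlap, the second Mt2 library lay far below the first, and the log2 change from con to Ht was −5.71 (SE 0.81, adjusted p = 0.000401). 1810008I18Rik (chr7:65803111-65806449, + strand, intergenic) went from 99.12 and 81.56 CPM in con to 1.311 and 1.428 in Ht, a log2 change of −6.06 (SE 0.69, adjusted p = 0.000167).

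Gm31583 (chr16:24085083-24090089, − strand) had 1101 counts in con and 1 in Ht, a ratio of 3833 (exact 95% counting interval 687 to 151550, edgeR adjusted p = 0.000234), but its con libraries themselves differed, with 16.93 and 78.98 CPM. Gm44787 (chr11:79258586-79273893, − strand) was at 9.519 and 6.466 CPM in con and at 0 in both Ht samples, at least 72.8-fold lower against the floor of 3 counts in a library (edgeR adjusted p = 0.00109). Counting intervals and floors cover counting error only.

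Further members of this kind were C730036E19Rik, which went from 5.583 and 15.35 CPM to 0.09784 and 0.1464 (log2 change −6.43, SE 0.66, adjusted p = 0.000124), and 9030616G12Rik, which went from 7.322 and 10.78 CPM to 0.2739 and 0.4027 (log2 change −4.77, SE 0.70, adjusted p = 0.000468). Gm36041 (chr10:122386892-122435033, + strand) fell by 7.91 on the log2 scale (SE 0.90, adjusted p = 0.000168). Gm15883, antisense to the cytochrome P450 gene Cyp2f2, had 152 counts in con and 2 in Ht, a ratio of 265 (counting interval 72 to 2205). Gm12909, beside the major urinary protein gene Mup3, had 144 counts in con and 3 in Ht, a ratio of 167 (counting interval 56.1 to 820). Non-overlap of the groups was part of the rule that named the largest changes, so it adds no support. Each member just named, like all 76 called lower, had its con libraries above both Ht samples. The summed hepatocyte markers moved the same way, from 181679 to 206404 CPM in con to 3896 to 5609 in Ht, and their part in these values was not tested.

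AW112010 fell less, from 77.25 and 71.56 CPM in con to 25.59 and 36.86 in Ht (log2 change −1.27, SE 0.27, adjusted p = 0.00271). It was at 124.1 CPM in L-con, 126.7 and 120.9 in Lt, and 84.2 and 125.3 in Mt3, so the early pieces lay above con, without passing the test in Lt (log2 change 0.74, SE 0.27, adjusted p = 0.101). Tmem250-ps also fell, from 88.14 and 94.24 CPM to 42.68 and 39.5 (log2 change −1.17, SE 0.17, adjusted p = 0.000432). The median log2 change of all genes from con to Ht was 0.09 with TMM and 1.27 with total-count scaling. Falls of the size seen in AW112010 and Tmem250-ps therefore depend on the scaling.

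**Figure D2:**
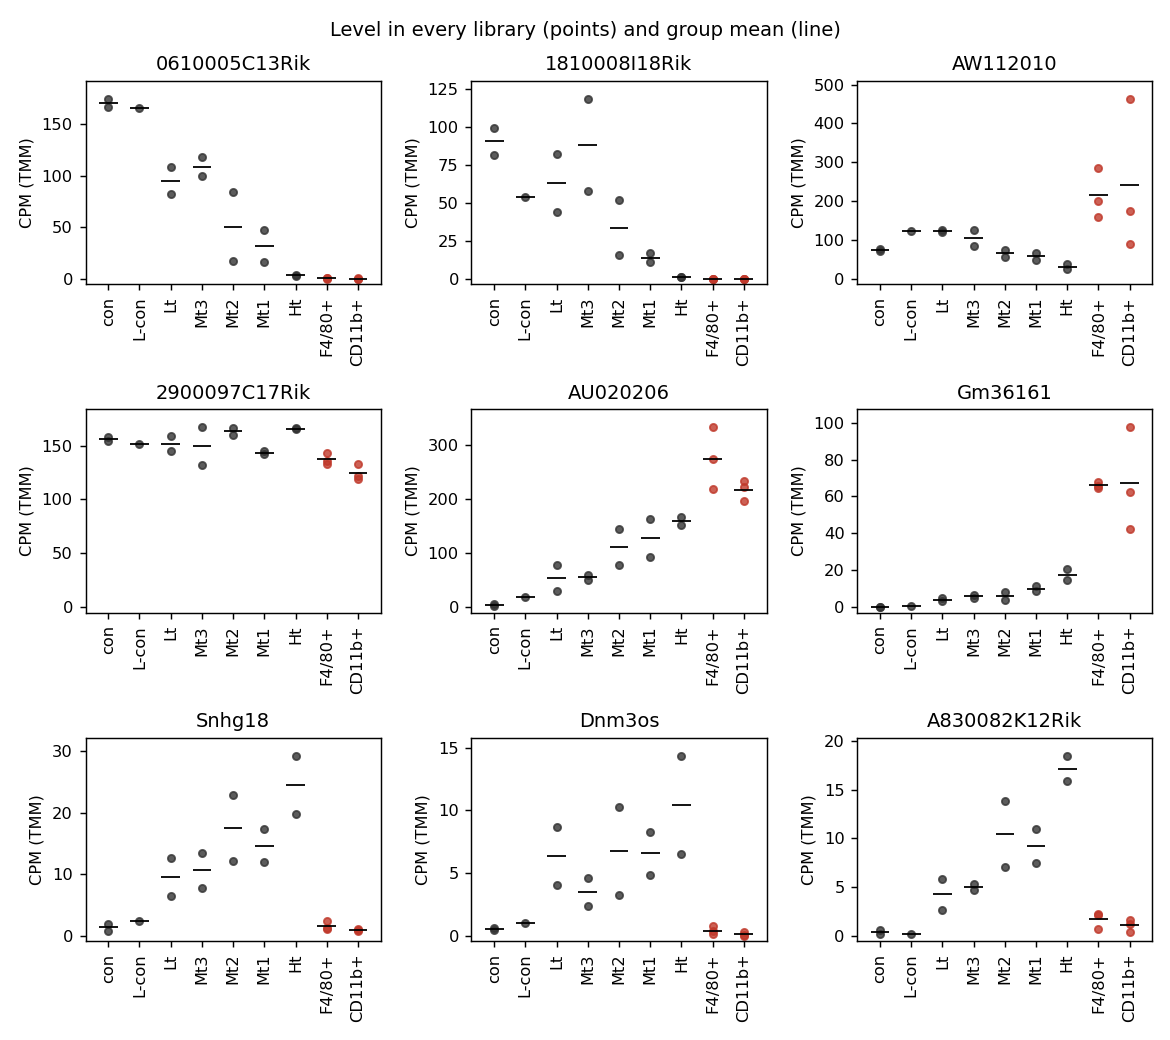
Levels in CPM (TMM) of 9 members in every library (points) with group means (lines), by group on the horizontal axis, with sorted cells in red and each vertical axis starting near 0. 0610005C13Rik and 1810008I18Rik are near 0 in Ht and sorted cells and far higher in con, 2900097C17Rik is level, AU020206 and Gm36161 are highest in sorted cells, and Snhg18, Dnm3os and A830082K12Rik are highest in Ht.

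Among the members that rose, AU020206 was the most abundant (chr7:75769038-75782099, − strand, 14429 bases from Akap13). Con livers had 6.681 and 2.759 CPM, the L-con liver 18.22, Lt pieces 29.17 and 76.98, Mt3 pieces 49.57 and 60.34, Mt2 pieces 77.31 and 145.1, Mt1 pieces 91.8 and 163.2, and Ht pieces 151.2 and 166.9. Every tumor library was above both con libraries, and the log2 change from con to Ht was 5.06 (SE 0.63, adjusted p = 0.000242). Gm36161 (chr13:120010390-120018931, + strand) went from 0 and 0.08622 CPM in con to 14.62 and 20.46 in Ht, with 1306 counts against 1, a ratio of 375 (counting interval 67.2 to 14827, edgeR adjusted p = 9.02e-05).

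Members absent or nearly absent from con formed a second set. Gm44275 (chr6:135312155-135319561, − strand) had no count in either con library and stood at 14.64 and 15.96 CPM in Ht, at least 55.7-fold higher (adjusted p = 0.000108). 3110039M20Rik, with no count in con and 8.883 and 4.869 CPM in Ht, was at least 25-fold higher (adjusted p = 0.00066), and B530045E10Rik, with 6.203 and 3.88 CPM in Ht, at least 18.4-fold higher (adjusted p = 0.00283). Gm32618 had 697 counts in Ht and 1 in con, and Zfp469, which the deposited annotation lists as lincRNA, 441 and 1. These genes were also present in Lt, where Gm44275 was at 3.058 and 4.47 CPM.

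Some members of the growth and stromal lists also rose. Of 7 tested genes of a growth and p53 list, 5 rose and none fell (median log2 change 1.94). Lockd, transcribed downstream of the cell cycle inhibitor gene Cdkn1b, went from 0.3661 and 0.3449 CPM to 13.81 and 7.028 (log2 change 4.84, SE 0.90, adjusted p = 0.00137). Pvt1, the neighbour of Myc, went from 1.922 and 2.587 CPM to 9.47 and 8.017 (log2 change 1.94, SE 0.31, adjusted p = 0.000689). Cell cycle markers were at 15.5 to 24.5 CPM in con and 1318 to 1348 in Ht, and their part was not tested. Hotairm1, from the HoxA cluster, went from 0.5492 and 0.9484 CPM to 5.244 and 3.441 (log2 change 2.51, SE 0.70, adjusted p = 0.0116), and shares 43.1% of its exonic bases with other genes.

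Of 5 tested genes of a stromal and vascular list, 3 rose and none fell (median 2.52). Dnm3os, the host of miR-199a and miR-214 (chr1:162217623-162225550, + strand), had 0.6407 and 0.4311 CPM in con livers, and Lt pieces held 4.028 and 8.672, Mt3 pieces 2.384 and 4.581, Mt2 pieces 3.254 and 10.27, Mt1 pieces 4.851 and 8.297, and Ht pieces 14.34 and 6.479. Each tumor library lay above con, and the log2 change to Ht was 4.26 (SE 0.81, adjusted p = 0.00159). Bvht, known from cardiac development, rose by 2.52 (SE 0.54, adjusted p = 0.00282). Fibroblast and stellate cell markers were at 358 to 516 CPM in con and 6489 to 7321 in Ht, and their part was not tested. A830082K12Rik (chr13:78198017-78279391, + strand), antisense to the transcription factor gene Nr2f1, went from 0.1831 and 0.6035 CPM to 18.49 and 15.89 (log2 change 5.39, SE 0.62, adjusted p = 0.000176).

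Of 10 tested genes of an immune list, 6 rose and 2 fell (median 4.14). Gm14005, the Morrbid RNA that acts on survival of short-lived myeloid cells, went from 0.9153 and 0.5173 CPM to 16.5 and 9.627 (log2 change 4.17, SE 0.67, adjusted p = 0.000664). Ptgs2os2 (lincRNA-Cox2), an RNA induced in macrophages, had no count in con and 3.033 and 3.002 CPM in Ht, at least 11-fold higher (adjusted p = 0.00356). The members AW112010 and, outside the level, A330040F15Rik were the 2 that fell. Macrophage markers were at 657 to 942 CPM in con and 2416 to 2471 in Ht, and their part was not tested.

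Of 17 tested hosts of small nucleolar RNAs, 7 rose and 2, Snhg11 and Snhg14, fell (median 0.9). Snhg18 was the 1 member among the 7, at 1.922 and 0.776 CPM in con and 29.19 and 19.77 in Ht (log2 change 4.17, SE 0.59, adjusted p = 0.000391). The other members gave log2 changes of 0.39 for Snhg6, 0.24 for Epb41l4aos, 0.61 for Snhg12 and 0.85 for Snhg20, with adjusted p-values of 0.442, 0.606, 0.144 and 0.174. Of 7 tested genes at imprinted loci, 1 rose and 2, Peg13 and Snhg14, fell (median −0.38). Airn, the antisense RNA that silences Igf2r in cis, was the one that rose, from 0.2746 and 0.4311 CPM to 3.522 and 2.16 (log2 change 2.97, SE 0.66, adjusted p = 0.00363). H19 was not called (log2 change 0.67, SE 1.36, adjusted p = 0.681), and 1 library decided its highest value: the second Mt1 library was at 11.25 CPM and every other tissue library at 2.035 or less.

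Of 6 tested nuclear and widely expressed RNAs, none rose or fell by edgeR with TMM scaling (median 0.01). With total-count scaling the median of all genes was 1.27 and not 0.09, so this result depends on the scaling. 2900097C17Rik changed by 0.07 (SE 0.17, adjusted p = 0.735) and Neat1, the scaffold of paraspeckles, by −0.06 (SE 0.34, adjusted p = 0.89). Malat1 was at 124.4 and 136.5 CPM in con and at 140 and 55.9 in Ht, so that the Ht samples spanned con (log2 change −0.43, SE 0.45, adjusted p = 0.425). Tug1 gave 0.42 (SE 0.15, adjusted p = 0.0302), under the fold threshold. The 1 tested gene of a list that overlaps ribosomal RNA repeats, Gm26917, gave −1.02 (SE 0.53, adjusted p = 0.118), with con libraries at 188.5 and 78.72 CPM and Ht at 72.53 and 61.35.

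Low-content tumor was compared with con to ask which of these differences were present at day 9. Of the 178 members, 30 rose and 1 fell (16.9% and 0.562%, against 12.4% and 0.256% of all genes tested). The median log2 change was 0.07 for the members and 0.10 for all genes. This comparison shares its con libraries with the one above, so the values are set side by side. AU020206 rose by 3.50 in Lt (SE 0.60, adjusted p = 0.00552) and by 5.06 in Ht, Snhg18 by 2.83 (SE 0.58, adjusted p = 0.012) and 4.17, Dnm3os by 3.56 (SE 0.82, adjusted p = 0.0192) and 4.26, and A830082K12Rik by 3.42 (SE 0.63, adjusted p = 0.00776) and 5.39. Gm44275 was at least 13.7-fold higher in Lt than in con, and 3110039M20Rik and B530045E10Rik at least 8.69-fold and 6.47-fold, the last with 0.8205 and 2.735 CPM in Lt.

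Liver-linked RNAs gave smaller differences at day 9, with 0 of 9 called in either direction. 0610005C13Rik changed by −0.84 (SE 0.66, adjusted p = 0.421) and C730036E19Rik by 0.34 (SE 0.47, adjusted p = 0.646). The 1 member that fell was Gm14097 (chr2:132694432-132698523, − strand, antisense to Shld1), from 9.427 and 9.398 CPM to 2.834 and 2.668 (log2 change −1.77, SE 0.49, adjusted p = 0.0422). It reached the level for membership only through con, the group it is compared with here, so its fall is a description. Among the 139 members that passed the level without their highest group, 23 rose and 0 fell. Of the other lists, 4 of 10 immune, 2 of 7 growth, 1 of 5 stromal and 1 of 17 small nucleolar RNA host genes rose in Lt, and none fell. Marker sums moved with these groups from con to Lt, with macrophage markers at 657 to 942 CPM and then 1213 to 1647, cell cycle markers at 15.5 to 24.5 and then 309 to 552, and fibroblast and stellate markers at 358 to 516 and then 1722 to 3195, and their part was not tested. No imprinted, nuclear, microRNA host or ribosomal repeat gene was called there. With 1 library left out, 7 were called higher without the first con library, 5 without the second, 29 without the first Lt library and 5 without the second. Each of these fits leaves 1 sample in an arm, assumed to vary like the other groups, so lost replication and the library itself cannot be told apart. Gm14097 was not called without any 1 of these 4 libraries, and 3110039M20Rik and B530045E10Rik were not called without either con library or without the second Lt library.

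Medium-content pieces (Mt3, Mt2 and Mt1, 6 libraries) were compared with Ht to ask what changed late in the series. Here 58 members fell and 2 rose (32.6% and 1.12%, against 13.4% and 1.5% of all genes tested), with a median log2 change of −0.25 for the members and 0.0 for all genes. With total-count scaling 55 fell and 20 rose (30.9% and 11.2%, against 10.3% and 15% of all genes tested). In the liver-linked list 7 of 9 fell (median −4.09). 0610005C13Rik gave −4.09 (SE 0.71, adjusted p = 0.00912) and 1810008I18Rik −4.66 (SE 0.61, adjusted p = 0.00861). Gm31583 had 1183 counts in Mt and 1 in Ht, a ratio of 861 (counting interval 154 to 34049). The Mt groups differed in this gene, with a mean of 30.67 CPM in Mt3, 7.016 in Mt2 and 1.232 in Mt1, so the ratio depends on the Mt group set against Ht. Gm15883 had 225 and 2 counts in Mt and Ht, Gm32468, which reached the level only through Mt3, 322 and 2, and Gm44787 was at least 25.2-fold lower in Ht. Among immune genes AW112010 fell by 1.24 (SE 0.23, adjusted p = 0.00981), and among small nucleolar RNA and microRNA hosts 1 each fell, Snhg11 and Mir22hg. The median of all genes moved from 0.0 with TMM to 0.55 with total-count scaling, so calling a fall of the AW112010 size depends on the scaling.

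The 2 members that rose were Gm36161, from 4.1 to 11.56 CPM over the Mt libraries to 14.62 and 20.46 in Ht (log2 change 1.29, SE 0.30, adjusted p = 0.019), and A830082K12Rik, from 4.697 to 13.87 CPM to 18.49 and 15.89 (log2 change 1.13, SE 0.34, adjusted p = 0.0439). AU020206 gave 0.79 (SE 0.41, adjusted p = 0.174), Snhg18 0.81 (SE 0.37, adjusted p = 0.131) and Dnm3os 0.95 (SE 0.48, adjusted p = 0.168). No gene of the growth, stromal, imprinted or nuclear lists was called, with 7, 5, 7 and 6 tested, and Gm26917 of the ribosomal repeat list was not called. With either Ht sample left out, which leaves 1 Ht sample assumed to vary like the other groups, no member was called lower or higher, and without the second Mt2 library 9 were called higher.

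The members called between con and Ht also differed between the libraries of Mt2, of Mt1 and of Lt. Of the 76 members lower in Ht, 74 were higher in the first than in the second Mt2 library and 70 higher in the first Mt1 library, and of the 45 members higher in Ht the counts were 0 and 2. In Lt the first library was higher for 70 of the 76 and 2 of the 45. In Mt3 the first library was higher for 39 of the 76 lower and 8 of the 45 higher members. Among the 57 members not called, the first library was higher for 20 in Mt2, 14 in Mt1, 18 in Lt and 23 in Mt3. The hepatocyte markers of the Mt2, Mt1 and Lt pairs, 105206 against 27894 CPM, 99847 against 26678 CPM and 179334 against 98498 CPM, moved with the members, and their part was not tested. The median level of the 76 lower members was 8.1 and 10.1 CPM in con livers, 7.13 in the L-con liver, 7.98 and 5.14 in Lt pieces, 4.29 and 1.73 in Mt2 pieces, and 0.411 and 0.476 in Ht pieces. For the 45 higher members con livers had 0.366 and 0.431, the L-con liver 0.605, Lt pieces 1.79 and 3.4, Mt2 pieces 2.34 and 5.12, and Ht pieces 5.24 and 4.58.

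**Figure D3:**
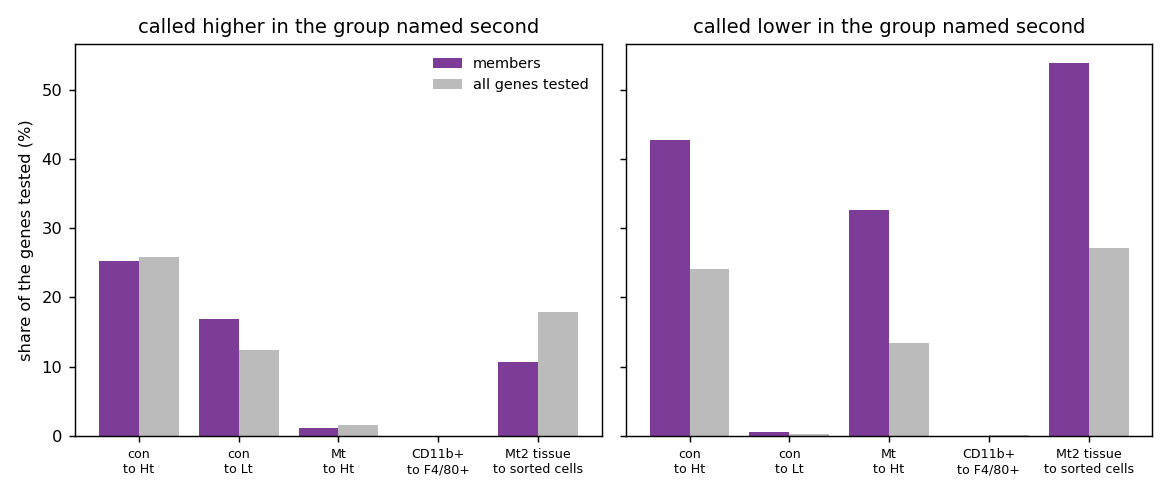
Bars give the share (%) of the genes tested that were called higher or lower in each comparison, for the members and for all genes tested, with axes starting at 0. Members were lower more often than all genes in con to Ht (42.7% and 24.1%) and in Mt to Ht (32.6% and 13.4%). No member was called between the sorted populations, where 0.00701% of all genes were called higher and 0.0701% lower.

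Sorted cells, labelled as from medium-content tumor at day 11 and described in the study's methods as from Mt2, were compared with the sequenced Mt2 pieces to ask which members the enriched myeloid cells carry. The 2 kinds of library were deposited in separate count tables and differed in preparation and in sex-linked genes (Xist at 0 to 3 counts in tissue and 5547 to 21805 in sorted cells), which shows other mice than those of the pieces, so those differences and cell type cannot be told apart. Of the 178 members, 19 were higher and 96 lower in sorted cells (10.7% and 53.9%, against 17.9% and 27.1% of all genes tested), with a median of −1.25 against −0.10. Members were chosen by their level in tissue, with no condition on sorted cells. A lean towards lower in sorted cells is therefore built into these shares. Of the 76 members that were lower in Ht, 40 had at most 3 counts in all 6 sorted libraries, and 21 exceeded a mean of 1 CPM. Of the 45 that were higher in Ht, 28 exceeded 1 CPM in sorted cells, and 6 were higher and 26 lower than in Mt2. Of the 57 not called, 52 exceeded 1 CPM. Over all 178 members, 25 had no count in any sorted library.

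AU020206 reached 218.6, 331.6 and 272.8 CPM in F4/80+ cells and 222.1, 195.2 and 233.5 in CD11b+ cells, against 77.31 and 145.1 in Mt2 (log2 change 1.13, SE 0.39, adjusted p = 0.0216). Gm36161 was at 67.78, 64.54 and 65.58 CPM in F4/80+ cells and 62.35, 42.13 and 97.35 in CD11b+ cells, against 4.1 and 8.161 in Mt2 (log2 change 3.42, SE 0.38, adjusted p = 2.25e-06). In both genes every sorted library exceeded every Mt2 library, and both were also higher in Ht than in con. Gm34084 (chr13:44472426-44504548, − strand) ranged from 18.23 to 56.22 CPM in sorted cells against 1.692 and 3.425 in Mt2 (log2 change 3.43, SE 0.56, adjusted p = 9.8e-05). A530040E14Rik (log2 change 2.85, SE 0.45, adjusted p = 7.04e-05) and AI504432 (2.76, SE 0.41, adjusted p = 4.43e-05) did likewise.

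AW112010, Malat1, Neat1, Gm26917 and Gdap10 were higher in sorted cells but were not called higher from con to Ht. AW112010 was at 200.2, 285.4 and 160.1 CPM in F4/80+ cells and 173.7, 89.67 and 463 in CD11b+ cells, against 74.51 and 55.81 in Mt2 (log2 change 1.81, SE 0.48, adjusted p = 0.00498). With TMM scaling it fell from con to Ht, a fall that depends on the scaling. Malat1 ranged from 348.3 to 574.5 CPM in sorted cells against 85.9 and 137.7 in Mt2 (log2 change 2.00, SE 0.39, adjusted p = 0.000464), and Neat1 from 59.96 to 85.65 against 23.04 and 39.92 (1.20, SE 0.26, adjusted p = 0.00103). Gm26917, which overlaps ribosomal repeats, was also higher (1.68, SE 0.41, adjusted p = 0.00282). Gdap10 (2.37, SE 0.49, adjusted p = 0.000806) and Bach2os (2.41, SE 0.23, adjusted p = 4.06e-07) rose as well, and were picked for mention after their values were seen. Bach2os was also called higher from con to Ht (1.35, SE 0.34, adjusted p = 0.00711). Over lists, 4 of 10 immune genes were higher and 1 lower, and 3 of 6 nuclear genes higher and 1 lower, the latter being 1700020I14Rik, the Cyrano RNA (−1.0, SE 0.15, adjusted p = 4.48e-05). The immune members Gm14005 (−0.13, SE 0.39, adjusted p = 0.786) and Ptgs2os2 (−1.22, SE 0.53, adjusted p = 0.064), higher in Ht than in con, were not called in sorted cells.

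Liver-linked and stromal members were low in the sorted cells. Of 9 liver-linked genes 8 were lower (median −6.33), among them 0610005C13Rik at 0 to 0.3535 CPM (log2 change −7.89, SE 0.56, adjusted p = 2.82e-08). 1810008I18Rik, with no count in any sorted library, was at least 193-fold lower than in Mt2, and Gm15611 and 0610031O16Rik at least 70.6-fold and 61.1-fold lower. Of 5 stromal genes 4 were lower and none higher, with Dnm3os at 0 to 0.789 CPM (log2 change −4.85, SE 0.62, adjusted p = 9.48e-06). Fibroblast and stellate markers summed to 3558 to 5744 CPM in Mt2, 364 to 550 in F4/80+ cells and 173 to 324 in CD11b+ cells, and their part was not tested. Snhg18, at 0.8037 to 2.367 CPM (−3.86, SE 0.36, adjusted p = 3.52e-07), A830082K12Rik at 0.3807 to 2.26 CPM (−2.97, SE 0.44, adjusted p = 4.15e-05) and Gm44275 at 0.3481 to 1.331 CPM (−3.58, SE 0.29, adjusted p = 2.17e-07) were thus higher in Ht than in con but lower in sorted cells than in Mt2. Of the growth list 1 was higher and 4 lower, of the imprinted list 0 and 3, of small nucleolar RNA hosts 2 and 5 of 17, and of microRNA hosts 2 and 1 of 6.

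**Figure D4:**
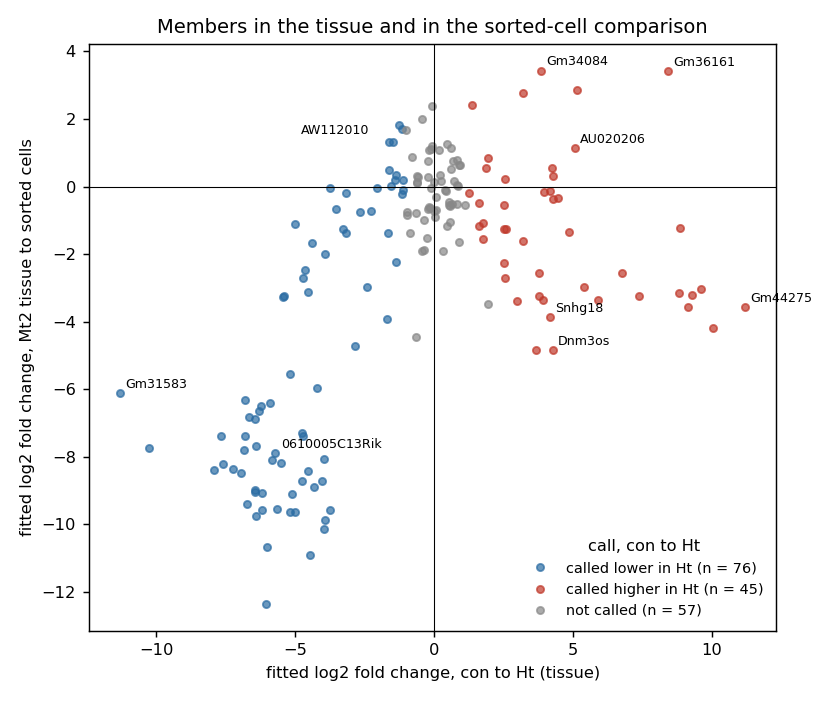
Each point is a member, with the fitted log2 fold change from con to Ht on the horizontal axis and from Mt2 tissue to sorted cells on the vertical axis, coloured by its call between con and Ht. Members lower in Ht are mostly also lower in sorted cells, whereas members higher in Ht spread from Gm34084 (3.43) to Dnm3os (−4.85) on the vertical axis; fitted values of genes without counts in a group depend on the prior count.

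No member was called between F4/80+ and CD11b+ cells by edgeR. Of 113 members that passed the filter on low counts, 0 were called higher and 0 lower, against 0.00701% and 0.0701% of all genes tested. So few genes were called at all that this count does not set the members apart. An unadjusted p under 0.05 was found for 5 and 9 members, and its share over all genes is not given here. DESeq2 called 2 members lower in F4/80+ cells, Ptgs2os2 and Lppos, the latter named after its values were seen. Ptgs2os2 was at 1.01, 0.4912 and 0.6904 CPM in F4/80+ cells and 1.803, 2.115 and 2.843 in CD11b+ cells, so the groups did not overlap (edgeR log2 change −1.67, SE 0.39, adjusted p = 0.185). The third CD11b+ library stood apart: 44 of the 113 members had their highest level there, among them AW112010 at 463 CPM and Lockd at 10.91 CPM against 1.97 to 3.934 in the other 5. It also had the highest neutrophil marker sum (4730 CPM), and without it the counts of members called remained 0 and 0. Among the lists, 1 of 8 tested immune genes, 4833407H14Rik, was lower in F4/80+ cells (log2 change −3.22, SE 0.34, adjusted p = 0.0284) and no other list gene was called.

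Members were set beside their coding partner, the gene they overlap or the nearest one within 5 kb. Over 110 such pairs with both fitted, the log2 changes from con to Ht had a Pearson r of 0.75, and over 48 members whose nearest coding gene was farther than 5 kb it was 0.59; both are descriptions across genes, which are not independent replicates and share all libraries. Of 69 called members with a partner, 43 had a partner that was called too, 39 of them in the same direction, and of 37 called members whose nearest coding gene was farther than 5 kb, 21 had that gene called too, 19 of them in the same direction. Of all genes tested in this comparison, 25.8% were called higher and 24.1% lower, so many partners of any gene would be called. Cyp2f2 fell by 8.91 (SE 1.24, adjusted p = 0.000367) and Mup3 by 6.97 (SE 0.78, adjusted p = 0.000165), beside Gm15883 and Gm12909.

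Partners of higher members rose with them in several places. Sema5a, the semaphorin gene 148 bases from Snhg18, went from 1.47 to 114.4 CPM (log2 change 6.26, SE 0.56, adjusted p = 9.16e-05), and Nr2f1 from 1.169 to 78.95 CPM (6.06, SE 0.38, adjusted p = 9.02e-05). Pbp2, 1750 bases from Gm44275, had no count in con and a mean of 15.67 CPM in Ht. If strand was not kept, shared exonic reads may enter both values of an overlapping pair; A830082K12Rik shared 5.8% of its exonic bases and Gm15883 16.2%, while Snhg18 and Gm12909 shared 0.0%.

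In other pairs the changes differed in size or in direction. Bcat2, a branched-chain amino acid enzyme gene overlapped by 0610005C13Rik, was at 28.28 CPM in con and 25.75 in Ht (log2 change −0.15, SE 0.15, adjusted p = 0.391), beside −5.71 for the antisense RNA. Cdkn1b gave 0.04 (SE 0.18, adjusted p = 0.841) beside 4.84 for Lockd, and Igf2r 0.45 (SE 0.16, adjusted p = 0.034) beside 2.97 for Airn. Wsb1 rose by 1.13 (SE 0.25, adjusted p = 0.00343) where Gm44787 was absent from Ht. Epb41l4a rose by 5.10 (SE 0.64, adjusted p = 0.000245) beside 0.24 for Epb41l4aos, 341 bases away.

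**Figure D5:**
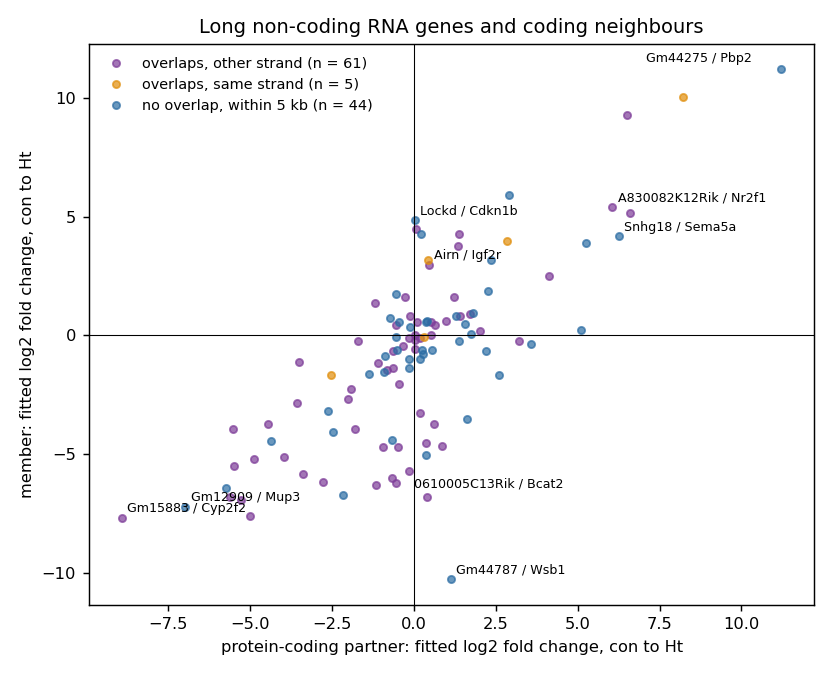
Each point is a member and its coding partner (110 pairs), with the partner's fitted log2 fold change from con to Ht on the horizontal axis and the member's on the vertical axis, coloured by position. Pairs such as Gm12909 and Mup3 lie near the diagonal, whereas 0610005C13Rik, Lockd and Airn changed beside partners with smaller changes (Bcat2 −0.15, Cdkn1b 0.04, Igf2r 0.45).

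The microRNA host genes differed among themselves, and mature microRNAs were not measured by these libraries. Of the 6 tested genes of a host list, 1 rose between con and Ht and 1, Mir22hg, fell (log2 change −2.05, SE 0.27, adjusted p = 0.00028), and none was called in Lt. Mir17hg was the one that rose, from 1.464 and 1.293 CPM in con to 5.851 and 3.587 in Ht (log2 change 1.76, SE 0.70, adjusted p = 0.0496). AL805899.1, named because RefSeq places miR-31 within it and not by its role, went from 0.3661 and 0.6035 CPM to 7.514 and 5.052 (log2 change 3.66, SE 0.75, adjusted p = 0.00232) and was at 0 to 0.393 CPM in sorted cells. 6720427I07Rik, which contains let-7d and was added in the same way, was not called (0.89, SE 0.53, adjusted p = 0.166). All 3 were lower in sorted cells than in Mt2, by 1.08 (SE 0.43), 4.84 (SE 0.51) and 1.64 (SE 0.40) on the log2 scale, with adjusted p-values of 0.0435, 1.38e-06 and 0.00243.

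The tumor-free liver of the day 12 mouse (L-con) is 1 library, so its values stand without a test. Of 163 members with more than 3 counts in a con library, L-con lay between the con libraries for 63, above both for 40 and below both for 60. It exceeded the higher con library by over 2 times for 6 members and by over 4 times for 1, Gm42047, named after its value was seen, at 34.2 CPM against 2.471 and 3.966. AU020206 was at 18.22 CPM against 6.681 and 2.759, and Gm36161 at 0.8637 CPM against 0 and 0.08622. For 6 members L-con lay under 0.5 times the lower con library, and for 0 under 0.25 times. The liver-linked 0610005C13Rik, at 165.5 CPM, was close to its con libraries (166.1 and 174.3), whereas 1810008I18Rik, at 54.07 CPM, lay below its own (99.12 and 81.56).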

How the data were processed

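The authors sequenced RNA of 14 tissue and 6 sorted-cell libraries and deposited 2 tables of whole-number counts per gene, not normalized. According to the submitters' processing notes they used CASAVA, HISAT2 2.0.5 and featureCounts 1.5.0-p3 on GRCm38; the strand setting of the counting is not given in the sources used here. Every count column was matched to a sample (0 unmapped).

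Counts were analysed in R 4.3.3 with edgeR 4.0.16 (TMM, filterByExpr, glmQLFit and glmQLFTest, Benjamini-Hochberg over all genes tested). The 2 Ht libraries of the identical sample were summed. One fit held 13 tissue samples in 7 groups, one the 6 sorted libraries, and one all 19 in 9 groups, whose TMM scale gave the printed levels. A gene was called where the adjusted p did not exceed 0.05 and the log2 change was 1 or more in size, and SE was the log2 change divided by the square root of F. The tissue fit was also run on simulated counts with known changes in Ht, and that result is not given here. DESeq2 1.42.0, other scalings, filters and left-out libraries were alternatives. Groups were taken from the sample labels. The deposited tables give biotype and position, and exons of GENCODE release M21 served for overlap, with 53585 of 54532 genes (98.3%) and 175 of 178 members at the same span. One ambiguous symbol was left out of the immune list.

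Genes named were the 10 members of highest mean CPM, the largest called changes without overlap in each direction (6 for con to Ht, 4 otherwise, mean log2 CPM of at least 1), and members of 9 lists by role (small nucleolar RNA hosts, microRNA hosts, imprinted loci, nuclear and widely expressed, growth and p53, liver linked, immune, stromal and vascular, ribosomal repeat overlapping). The 9 marker lists were those given with the library totals. Members and lists were chosen with earlier results of these data known. Replicate numbers share no animal or batch in the labels. A depth of 16032085 to 20548370 counts sets a floor of 3 counts per library. Some results that this rule covers are not reported here.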

Additional observations from a re-analysis of the deposited data

How the results depend on the processing

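With total-count scaling con to Ht gave 76 higher and 60 lower members, against 45 and 76 with TMM, and their median log2 change went from −0.40 to 0.79; Mt to Ht gave 20 higher, and con to Lt 0 lower. Apart from con to Ht and Mt to Ht with total-count scaling, shares over all genes under the alternative settings are not given here. Whether the members or the whole table moved was not tested. Requiring at least 10 counts in every library, which removes genes near 0 in a group, left 15 higher and 43 lower in con to Ht, 6 and 0 in con to Lt, 0 and 28 in Mt to Ht, and 16 lower in sorted cells. No filter gave 5 lower in con to Lt and 12 higher in Mt to Ht. A mean of at least 5 CPM, which shortens the list, left 16 and 27 in con to Ht, 13 and 0 in con to Lt, 23 lower in Mt to Ht, and 8 and 35 in sorted cells. Members overlapping no other gene gave 17 and 32, 10 and 0, 0 and 27, and 5 and 43. DESeq2 gave 2 lower in con to Lt, 4 higher in Mt to Ht and 2 lower in F4/80+ cells. Fitting the compared groups alone gave 3 lower in con to Lt, Ht as 3 libraries gave 5 higher in Mt to Ht, and an adjusted p alone 4; the cause was not tested. Leaving out 1 library gave 41 to 45 higher and 68 to 74 lower in con to Ht, 5 to 29 and 0 to 1 in con to Lt, 0 to 9 and 0 to 62 in Mt to Ht, 0 and 0 between sorted populations, and 13 to 23 and 85 to 94 in sorted cells. In fits that leave 1 sample in a group, it was assumed to vary like the other groups. Correlations of the deviations of same-numbered samples were -0.102 for con and Ht, -0.197 for con and Lt, -0.37 for Mt and Ht and -0.138 to 0.0106 between sorted populations. In groups of 2 samples the deviations mirror each other, so these values cannot exclude pairing there. A replicate block gave 5 higher in Mt to Ht and moved no other count by over 1.5 times. Among the 31 fold changes named as the largest of their comparison, 31 kept their call with DESeq2, 30 with total-count scaling, and 154 of 180 values when 1 library was left out, and none of these reversed; Ptgs2os2 and Lppos, outside these 31, were called between sorted populations by DESeq2 and not by edgeR. Low counts limit precision for members near 0 in a group.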
